A study of Mus musculus with 10 samples.

Results

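Integrins, laminins and collagens were examined in single Bergmann glial cells of the developing and the mature mouse cerebellum. Members were all genes with a symbol of the integrin alpha, integrin beta, laminin, collagen or nidogen families, together with Agrn, Hspg2 and Fn1, that had a probe set paired with that gene alone and a value in every cell. This gave 80 genes of 17919 genes measured, and they were 16 integrin alpha subunits, 8 integrin beta subunits, 10 laminin chains, 41 collagen chains and a group of 5 made up of Nid1, Nid2, Agrn, Hspg2 and Fn1. The reference annotation holds 85 such symbols. Of the others, Col8a2 had only a probe set with blanks, and 4 others, which no probe set was paired with alone, were not analysed here.

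The cells came from mice of a GFAP-GFP reporter line, which express GFP under the Gfap promoter, and all 10 cells share this genotype. Cells with GFP were taken 1 by 1 from the mid-sagittal cerebellum, 5 at P6 (postnatal day 6) and 5 at P30 (postnatal day 30), so that the cerebellum of young pups was set against that of mature mice. The RNA of each cell was amplified as cDNA by RT-PCR and hybridised to 1 array, so each array is 1 cell. The animals are not named, and the cells of an age may come from 1 animal or several. Each age is therefore treated as 1 sample without a test, and every SD below describes the spread of 5 cells.

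Integrins are receptors made of 1 alpha and 1 beta subunit that bind proteins of the extracellular matrix outside the cell and connect them to the actin skeleton inside it. Laminins, collagen IV, nidogens and the proteoglycans agrin and perlecan build the basement membrane, the thin sheet of matrix on which the endfeet of Bergmann glia rest at the surface of the cerebellum. Loss of beta1 integrin, of integrin-linked kinase or of certain laminin chains is known to disturb these endfeet and the layering of the cerebellum.

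All values are log2 ratios. The deposited values are ratios that carry no level, and 69.5% of complete probe sets had a median of 1 over the P6 cells, so a log2 ratio of 0 marks a typical P6 cell and does not show how much RNA of a gene was present, or whether any was. Differences are the mean log2 ratio at P6 minus that at P30, averaged first over the probe sets of a gene, so that a positive difference means higher at P6. A difference of more than 3-fold, 1.58 on the log2 scale, was called large, and the ages were called apart where all 5 cells of 1 age lay above all 5 of the other. Ratios end at a floor of 0.01, a log2 ratio of -6.64, and a fold against an age that has cells there is a lower bound. Over all genes the median difference was 0.05. Dividing every array by its own median lowered all differences by 0.16.

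Members were over 3-fold in shares that lay near, and slightly under, those of all genes. Over 3-fold higher at P6 were 6 of the 80 members, 7.50%, against 9.39% of all genes, and over 3-fold higher at P30 were 3 members, 3.75%, against 4.93% of all genes. The 6 were Itga6, Nid1, Col5a2, Col4a2, Col4a5 and Col2a1, and the 3 were Itga7, Itgb5 and Col9a2. No member had all P6 cells above all P30 cells, against 2.13% of all genes, and 2 members, Itga7 and Col7a1, had all P30 cells above all P6 cells, against 1.41% of all genes, or 3.54% in either direction. The mean was higher at P6 for 34 members, 42.5%, against 52.4% of all genes. The median difference of the members was -0.23 and their median SD within ages was 0.81, against 1.04 over all genes. Just inside the 3-fold line were Col9a2 at -1.65 and Col2a1 at 1.72, and just outside it were Col7a1 at -1.42 and Col23a1 at 1.38.

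**Figure D1:**
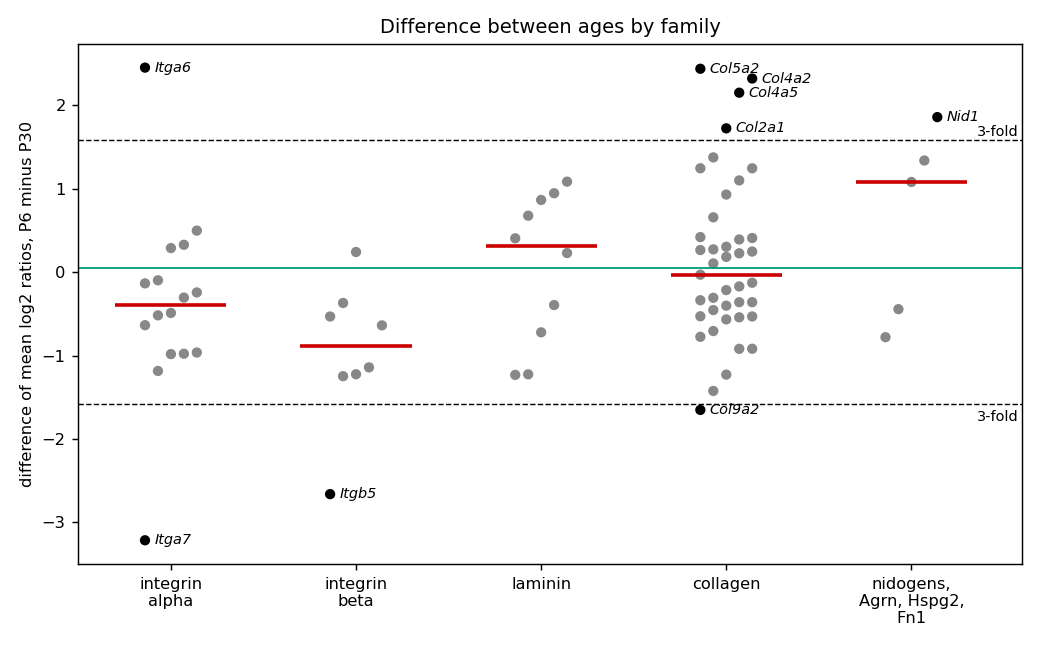
Each point is a gene, placed in its family on the x axis, with its mean log2 ratio at P6 minus that at P30 on the y axis. Red bars are the family medians, the green line is the median of all 17919 genes (0.05), the dashed lines are 3-fold, and black points with names lie beyond them. Integrin beta subunits have the lowest median, -0.89, and the group of nidogens, Agrn, Hspg2 and Fn1 the highest, 1.08.

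Itga7 and Itga6 encode the alpha chains of the laminin receptors alpha7beta1 and alpha6beta1, and these chains had the largest difference among all members in each direction. Itga7 had log2 ratios of -0.66, 0.00, 0.09, -0.70 and 0.06 in P6 replicates 1 to 5 and of 1.68, 2.23, 7.22, 1.19 and 2.55 in P30 replicates 1 to 5. Every P30 cell lay above every P6 cell, and P30 replicate 3 lay far above the other P30 cells. The means were -0.24 ± 0.40 (SD, n = 5) at P6 and 2.97 ± 2.43 (SD, n = 5) at P30, a difference of -3.21, or 9.28-fold. Without P30 replicate 3 the difference was -2.15, still over 3-fold, and leaving out any other cell gave -3.66 to -3.10. A single probe set measures Itga7.

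Itga6 lay the other way, with log2 ratios of -0.65, -2.50, -0.01, 0.37 and -0.31 in the P6 cells and of -4.45, -3.38, -1.37, -3.30 and -2.85 in the P30 cells. P6 replicate 2 was lower than P30 replicate 3, and otherwise every P6 cell was above every P30 cell. The means were -0.62 ± 1.12 (SD, n = 5) and -3.07 ± 1.11 (SD, n = 5), and the gene was at least 5.47-fold higher at P6. Its 2 probe sets had differences of 3.61 and 1.29. Only the first of them had a P30 cell at the floor, and without it the gene was no longer over 3-fold. Over the 10 cells, which share the scaling of their arrays and the contrast of age, Pearson's r between Itga6 and Itga7 was -0.30. The other laminin-binding chain, Itga3, had a difference of 0.29.

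The remaining alpha subunits are given here by the ligands they are known for. Those that bind collagen, Itga1, Itga2 and Itga10, all had the higher mean at P30, with differences of -0.96, -0.98 and -0.98, under the 3-fold line. Itga5, Itgav, Itga8 and Itga2b bind RGD motifs, short peptides found in fibronectin and vitronectin, and their differences lay between -0.49 and 0.50. Itgav, the shared partner of Itgb3, Itgb5, Itgb6 and Itgb8, was -0.45 ± 0.61 (SD, n = 5) at P6 and -0.14 ± 0.36 (SD, n = 5) at P30. Its 5 probe sets differed in sign, from -1.98 to 1.00. Itga5, the fibronectin receptor chain, had the second largest difference towards P6 among alpha subunits, 0.50, and its 4 probe sets ran from -0.44 to 1.49. The chains best known from leukocytes, Itgal, Itgam, Itgax and Itgae, had the higher mean at P30 in 4 of 4 cases. For Itgam the difference was only -0.13. Among them Itgae, which binds E-cadherin, had the largest difference, -1.18. Itga4 and Itga9, receptors of VCAM-1 and tenascins among others, had differences of -0.10 and 0.33. Over all 16 alpha subunits the mean was higher at P30 for 12 and the median difference was -0.40. The mean was higher at P6 for 25.0% of them, against 52.4% of all genes.

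Among the beta subunits, 7 of 8 had the higher mean at P30 and the median difference was -0.89. The mean was higher at P6 for 12.5% of them, against 52.4% of all genes. Itgb5, a partner of alpha v and a receptor for vitronectin, was the only one over 3-fold. Its log2 ratios were 0.00, -6.60, 0.60, 0.25 and -6.64 in the P6 cells and 0.97, 0.99, 1.23, -2.47 and 0.18 in the P30 cells. In both ages the cells were not alike: P6 replicates 2 and 5 lay at or next to the floor while the other 3 P6 cells reached the range of the P30 cells, and P30 replicate 4 lay below its age. Means of -2.48 ± 3.79 (SD, n = 5) and 0.18 ± 1.53 (SD, n = 5) gave a gene at least 6.32-fold higher at P30. The difference of medians over cells, -0.97, was under the 3-fold line, and without P6 replicate 2 or P6 replicate 5 the difference of means was -1.63 or -1.62.

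The pattern of Itgb5 over single cells was the same in each of its 4 probe sets. Their differences ran from -2.81 to -2.55, and Pearson's r between any 2 of them over the 10 cells was 0.998 to 1.00. The SD of Itgb5 within ages, 2.89, was higher than that of 97.6% of all genes. Itgb1, the partner of most of the alpha subunits above, contrasted with this. Its log2 ratios were -0.65, 0.36, -0.33, -0.77 and 0.09 in the P6 cells and -0.21, 0.54, 0.21, 0.62 and 0.19 in the P30 cells, which overlapped. Means of -0.26 ± 0.48 (SD, n = 5) and 0.27 ± 0.33 (SD, n = 5) gave a difference of -0.53. Its 5 probe sets had an r of -0.18 to 0.34 with each other and differences of -1.01 to 0.07, so the small spread of the gene is that of a mean over probe sets that did not move together. Some of the probe sets of both genes end in _x_at, a mark of the array design for probes that can read more than 1 transcript. Without such probe sets, and those ending in _s_at, Itgb5 had a difference of -2.65.

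**Figure D2:**
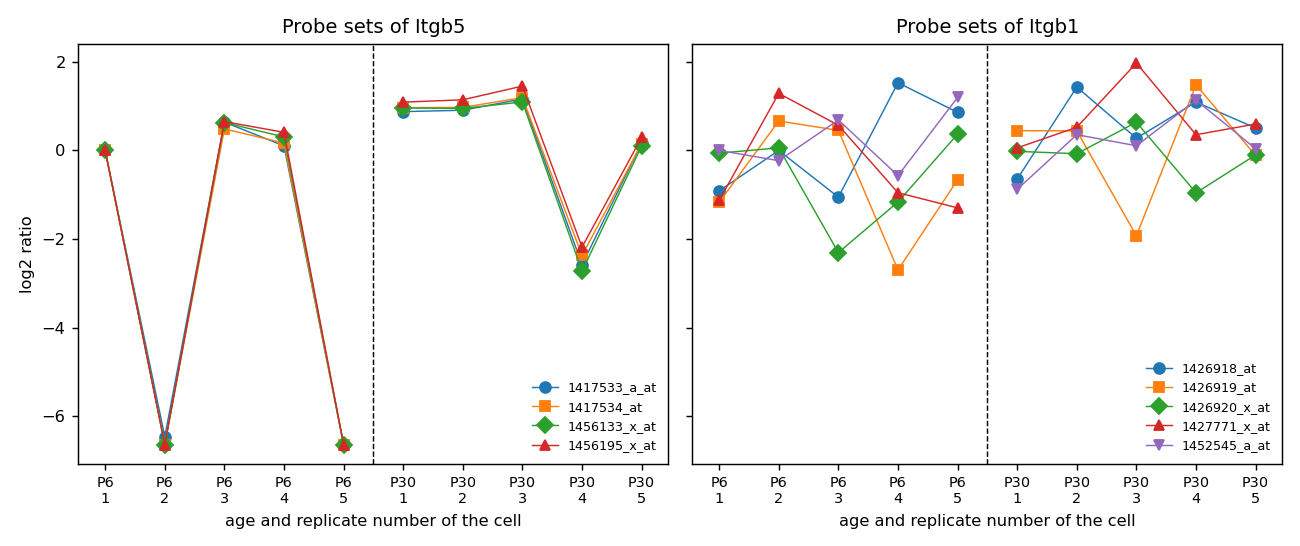
Log2 ratios of the probe sets of Itgb5 (left) and Itgb1 (right) on the y axis in each cell on the x axis. Each colour is a probe set, lines only connect its points, and the dashed line parts the ages. The 4 probe sets of Itgb5 overlie each other, with P6 replicates 2 and 5 near -6.64, while the 5 of Itgb1 cross.

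The other beta subunits overlapped between the ages in every case. Itgb7, a leukocyte subunit, had log2 ratios with means of -0.02 ± 0.78 (SD, n = 5) and 1.23 ± 0.87 (SD, n = 5) and a difference of -1.25. Itgb3 and Itgb4, named after their values were seen, had differences of -1.22 and -1.14. Itgb8, which with alpha v activates TGF-beta and is known from radial glia, was -1.04 ± 1.44 (SD, n = 5) at P6 and -0.67 ± 0.92 (SD, n = 5) at P30. Itgb2, the common chain of the leukocyte receptors, was the only beta subunit with the higher mean at P6, by 0.24, and each cell left out in turn gave -0.14 to 0.43.

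No laminin chain was over 3-fold and none had its ages apart, against 14.3% and 3.54% of all genes in either direction. The ratio of arithmetic means, which weighs high cells more, put Lama1 at 1.77 and Lama4 at 1.65, over 3-fold. Laminins are trimers of an alpha, a beta and a gamma chain, and the members are 5 alpha, 3 beta and 2 gamma chains. Their differences ran from -1.23 to 1.09 with a median of 0.32. The mean was higher at P6 for 6 of 10, against 52.4% of all genes. That median was -0.04 without P6 replicate 2 and -0.18 with medians over cells in place of means, so no direction of the family can be given.

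Lama2, the chain of laminin-211 that is mutated in a congenital muscular dystrophy, and Lamc3 had the largest differences towards P30. Lama2 was 1.33, 0.88, -0.49, -0.18 and 0.00 in the P6 cells and 0.66, 1.46, 2.21, 0.77 and 2.56 in the P30 cells. Only P6 replicates 1 and 2 reached the P30 cells. The difference was -1.22, from means of 0.31 ± 0.76 (SD, n = 5) and 1.53 ± 0.84 (SD, n = 5). Lamc3 was -0.11, 0.98, -0.37, -0.04 and -0.48 in the P6 cells and 2.12, 0.74, 0.87, 1.54 and 0.86 in the P30 cells. Only P6 replicate 2 overlapped, and without it the ages were apart. Its difference was -1.23, from means of -0.01 ± 0.58 (SD, n = 5) and 1.23 ± 0.59 (SD, n = 5).

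Towards P6 the largest laminin differences were those of Lama4 and Lama1. Lama1 encodes the alpha chain of laminin-111, a main laminin of the pial basement membrane, and its P6 cells were -0.14, 3.45, -0.03, 0.00 and 0.22 against -0.13, 0.32, -0.81, 0.03 and -0.64 in the P30 cells. P6 replicate 2 lay far above all others, and the difference of 0.95 was 0.26 without that cell. Lama5 was highest in the same cell, at 3.44, and its difference of 0.41 became -0.34 without it. Lama4, a chain known from blood vessels, had a difference of 1.09, and its probe sets gave 1.94 and 0.23. It was highest in P6 replicate 3, at 2.44, and the difference was 0.53 without that cell and 0.97 to 1.47 without any other.

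Lamb2, at -3.97 in P30 replicate 4 and between -0.94 and 0.49 in the other P30 cells, had a difference of 0.87, and of 0.11 without that cell. Lamb1 and Lamc1, chains shared by many laminins, had differences of -0.39 and 0.23, within the spread of the cells.

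Among the partners of laminin in the basement membrane, Nid1 was over 3-fold. Nid1 encodes nidogen-1, which links laminin to collagen IV. Its log2 ratios were -0.46, 0.53, 0.09, -1.18 and -2.72 in the P6 cells and -4.10, -3.71, -1.61, -1.02 and -2.59 in the P30 cells. P6 replicate 5 was among the P30 cells and P30 replicate 4 among the P6 cells. The means were -0.75 ± 1.27 (SD, n = 5) and -2.60 ± 1.32 (SD, n = 5), a difference of 1.86, or 3.63-fold. Without P6 replicate 2, P30 replicate 1 or P30 replicate 2 it was under 3-fold, the lowest value being 1.49. Its 3 probe sets gave 3.06, 2.04 and 0.48. The first of these had all P6 cells above all P30 cells, and the second had a cell at the floor at both ages, so the fold is no bound.

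Nid2 had a difference of 1.34, with 2.79 in P6 replicate 5, without which it was 0.65. Agrn, the proteoglycan that clusters receptors at synapses and binds dystroglycan, had a difference of 1.08 that lay in 1 of its 2 probe sets, with 1.88 against 0.28. Hspg2 encodes perlecan, and its mean was higher at P30, with a difference of -0.78 from probe sets that disagreed, -1.90 and 0.34. Fn1, which encodes fibronectin, had 3.49 in P30 replicate 5 and -1.02 to 0.43 in the other P30 cells. Its difference of -0.44 turned to 0.27 without that cell. Over these 5 genes the median difference of 1.08 is that of Agrn. It was 0.36 with medians over cells.

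Collagens as a family were divided evenly. Of 41 chains, 20 had the higher mean at P6 and 21 at P30, and the median difference was -0.03, or -0.19 once each array was divided by its median. The 4 chains over 3-fold higher at P6 were Col5a2 and Col2a1, which form fibrils, and Col4a2 and Col4a5, which form the network of basement membranes. They are 9.76% of the chains, against 9.39% of all genes. Chains of the FACIT class, which coat fibrils, had a median of -0.36 over 9 genes, and those of collagens VI and VII a median of -0.18 over 6 genes. The fibrillar class had a median of 0.23 over 11 genes and collagen IV of 0.52 over 6 genes.

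Collagen IV is made in 3 kinds of trimer, and its genes lie in pairs that point away from each other, Col4a1 with Col4a2, Col4a3 with Col4a4, and Col4a5 with Col4a6. As means over probe sets, which differed in sign for Col4a1 and Col4a4, chains of a pair did not vary together over the 10 cells. The part of the probe sets in this was not tested. Pearson's r was 0.22 for Col4a1 with Col4a2, -0.24 for Col4a3 with Col4a4 and -0.04 for Col4a5 with Col4a6, all over cells that share the scaling of their arrays. Col4a2 was -3.49, 0.61, -0.28, -6.64 and 0.23 in the P6 cells and -4.75, -5.53, -5.27, -4.57 and -1.05 in the P30 cells. P6 replicate 4 was at the floor and below every P30 cell, and P30 replicate 5 was above the other P30 cells. The difference was 2.32, or 5.00-fold, from means of -1.91 ± 3.10 (SD, n = 5) and -4.24 ± 1.82 (SD, n = 5), and it was 1.69 without P6 replicate 2, 3.50 without P6 replicate 4, 3.12 without P30 replicate 5 and 4.48 with medians over cells. A single probe set measures it, and since a cell of the higher age is at the floor this fold is no bound.

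Col4a1, whose chain forms the common trimer together with that of Col4a2, was -1.41, 0.00, -1.32, 1.34 and 3.60 in the P6 cells and 1.57, -1.45, -1.73, 0.22 and 0.32 in the P30 cells. The ages overlapped throughout. Its difference was 0.66, and -0.13 without P6 replicate 5.

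Col4a5 was 1.17, -3.57, 0.57, -0.21 and -0.84 in the P6 cells and -1.36, -3.73, -2.84, -2.27 and -3.44 in the P30 cells. Without P6 replicate 2 its ages were apart. The difference was 2.15, or 4.44-fold, from means of -0.58 ± 1.84 (SD, n = 5) and -2.73 ± 0.95 (SD, n = 5). Its probe sets gave 3.91 and 0.39, so the large difference is that of 1 probe set. With a floor of 0.1 it was 1.54, under 3-fold. Col4a6, its neighbour, had a difference of -0.92, and its probe sets gave -1.13 and -0.71. Col4a3 had -0.92 and Col4a4 0.39, and these 3 chains are named for completeness of the class. The probe sets of Col4a4 gave -0.89, -0.32 and 2.39, and the last had 3 P6 and 4 P30 cells at the floor.

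The upstream sequences of 4 members are printed. Col4a5 and Col4a6 were taken as neighbours with differences of opposite sign. Itgb5 and Nid1 were taken as the members over 3-fold with the most probe sets, which had the same sign in 4 of 4 and 3 of 3. The part of these sequences in the differences was not tested. RefSeq promoter windows were matched by symbol for 57 of the 80 members, on the build GRCm38.p6, and each was trimmed to the bases before the annotated start of the gene. Col4a5 is on chromosome X at chrX:141475169-141475369 on the plus strand, and Col4a6 at chrX:141474096-141474326 on the minus strand. Itgb5 is at chr16:33829415-33829664 and Nid1 at chr13:13437352-13437601, both on the plus strand. Capitals mark matches to the GC box, GGGCGG, on either strand.
Col4a5: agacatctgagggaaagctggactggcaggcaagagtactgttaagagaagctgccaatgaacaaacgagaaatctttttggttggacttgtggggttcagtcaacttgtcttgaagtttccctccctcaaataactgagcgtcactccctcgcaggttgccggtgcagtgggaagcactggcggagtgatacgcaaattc
Col4a6: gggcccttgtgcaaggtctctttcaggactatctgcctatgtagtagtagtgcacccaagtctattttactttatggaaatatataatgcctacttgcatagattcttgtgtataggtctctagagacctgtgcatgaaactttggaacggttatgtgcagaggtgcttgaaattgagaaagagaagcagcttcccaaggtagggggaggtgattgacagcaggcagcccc
Itgb5: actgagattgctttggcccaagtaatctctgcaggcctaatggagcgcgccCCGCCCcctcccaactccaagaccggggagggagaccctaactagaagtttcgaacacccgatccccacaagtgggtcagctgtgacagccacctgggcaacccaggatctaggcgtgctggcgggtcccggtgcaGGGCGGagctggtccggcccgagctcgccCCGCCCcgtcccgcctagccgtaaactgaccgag
Nid1: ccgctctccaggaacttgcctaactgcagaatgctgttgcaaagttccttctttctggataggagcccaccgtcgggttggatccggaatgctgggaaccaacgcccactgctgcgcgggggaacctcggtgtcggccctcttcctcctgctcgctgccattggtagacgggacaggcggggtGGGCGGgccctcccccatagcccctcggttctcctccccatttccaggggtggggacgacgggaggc

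Of the bases printed, G and C made up 49.8% for Col4a5, 45.5% for Col4a6, 65.2% for Itgb5 and 64.4% for Nid1. The GC box matched at 3 places in Itgb5 and 1 in Nid1, and at none in Col4a5 and Col4a6. It was held by 32.7% of all 32851 promoter windows cut to 250 bases, the length of Itgb5 and Nid1, and by 24.8% cut to 201 bases, the length of Col4a5. The letters CCAAT, on either strand, matched once in Nid1 and once in Col4a5, against 33.8% and 28.6% of windows of those lengths. TATAAA on either strand matched in none of the 4, against 9.18% to 12.4% of windows. These matches describe the letters only.

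Col5a2 encodes a chain of collagen V, which starts and sizes the fibrils of collagen I. It was 1.19, -1.85, -2.28, 0.72 and -1.07 in the P6 cells and -0.47, -3.11, -3.84, -4.83 and -3.23 in the P30 cells. In these means over 2 probe sets, only P30 replicate 1 reached the P6 cells. Means of -0.66 ± 1.54 (SD, n = 5) and -3.10 ± 1.62 (SD, n = 5) gave a difference of 2.44, or 5.42-fold, and its probe sets gave 2.62 and 2.26. Each cell left out in turn gave 1.98 to 3.10, all over 3-fold. Cell by cell, however, the probe sets disagreed. P6 replicate 3 was at -5.58 in 1 and 1.02 in the other, and P30 replicate 1 at -3.35 and 2.41.

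Col2a1, the collagen of cartilage, was -0.88, -3.63, 0.37, 0.56 and 0.00 in the P6 cells and -3.45, 0.87, -3.90, -3.70 and -2.03 in the P30 cells. In each age 1 cell lay with the other age, P6 replicate 2 among the low and P30 replicate 2 above all P6 cells. Its difference was 1.72, or 3.30-fold, and it was below 3-fold when arrays were divided by their medians and without any 1 of P6 replicates 3, 4 and 5 or of P30 replicates 1, 3 and 4.

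Col9a2 encodes a chain of collagen IX, a FACIT collagen that coats fibrils. It was -4.37, 2.20, -4.24, 2.19 and 0.00 in the P6 cells and 2.39, 1.87, -1.75, 0.26 and 1.27 in the P30 cells. P6 replicates 1 and 3 lay below every P30 cell, and the other P6 cells lay among them. Means of -0.84 ± 3.28 (SD, n = 5) and 0.81 ± 1.64 (SD, n = 5) gave -1.65, or 3.14-fold, within the spread of the cells, and the difference was -0.77 to -2.41 with each cell left out. Col9a1, another chain of collagen IX, named after its values were seen, had the opposite sign as a mean over probe sets, 1.25. Its 2 probe sets disagreed, at 2.96 and -0.47, and the first had 3 P30 cells at the floor.

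Col7a1 encodes the collagen of anchoring fibrils in skin. It was 0.19, 0.14, -0.40, -0.32 and 0.00 in the P6 cells and 0.33, 1.01, 0.88, 4.26 and 0.26 in the P30 cells. Every P30 cell was above every P6 cell, but the nearest 2 cells of the ages, at 0.19 and 0.26, were close. The difference of -1.42, or 2.68-fold, was -0.70 without P30 replicate 4.

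**Figure D3:**
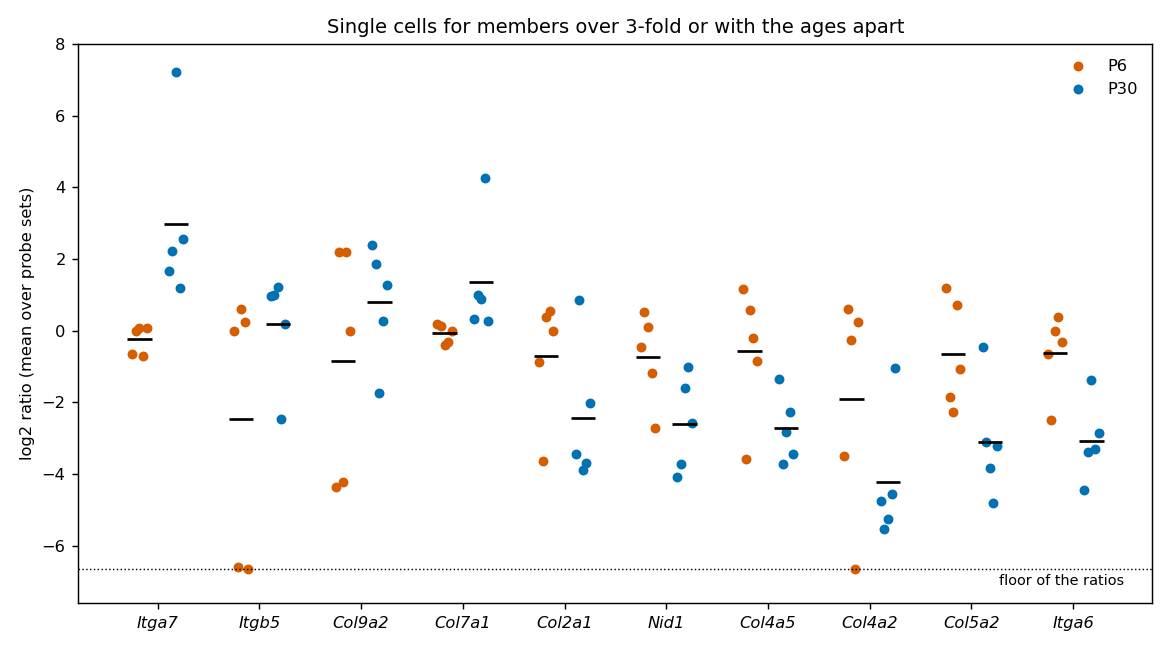
Log2 ratio (y axis) of the 10 members that were over 3-fold or had the ages apart, with 1 point for each cell, P6 in orange and P30 in blue, a black bar for each mean and a dotted line at the floor of -6.64. For Itga7 and Col7a1 all blue points lie above all orange ones, and the orange points of Itgb5, Col9a2 and Col4a2 are split, with some far below the others.

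The collagens of fibrous tissue besides Col5a2 were under 3-fold. Col1a1, Col1a2 and Col3a1, named here as the main collagens of fibroblasts after their values were seen, had differences of -0.71, 0.30 and 0.93. Pearson's r over the 10 cells was 0.06 between Col3a1 and Col5a2 and -0.43 between Col6a1 and Col6a2, which encode chains of the same trimer of collagen VI.

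Of the 50 members with more than 1 probe set, 27, or 54.0%, had the same sign of difference in all of them, against 45.4% of the 8738 such genes on the array. Member probe sets with blanks numbered 4 of 165. Col8a2 had values in P30 replicates 2, 3 and 4 only, at log2 ratios of 1.57, 0.20 and 1.73, and the probe set of Col11a1 that was left out had values in P30 replicates 2 and 4, at 0.43 and 2.48. Both entered no comparison because no P6 cell had a value.

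**Figure D4:**
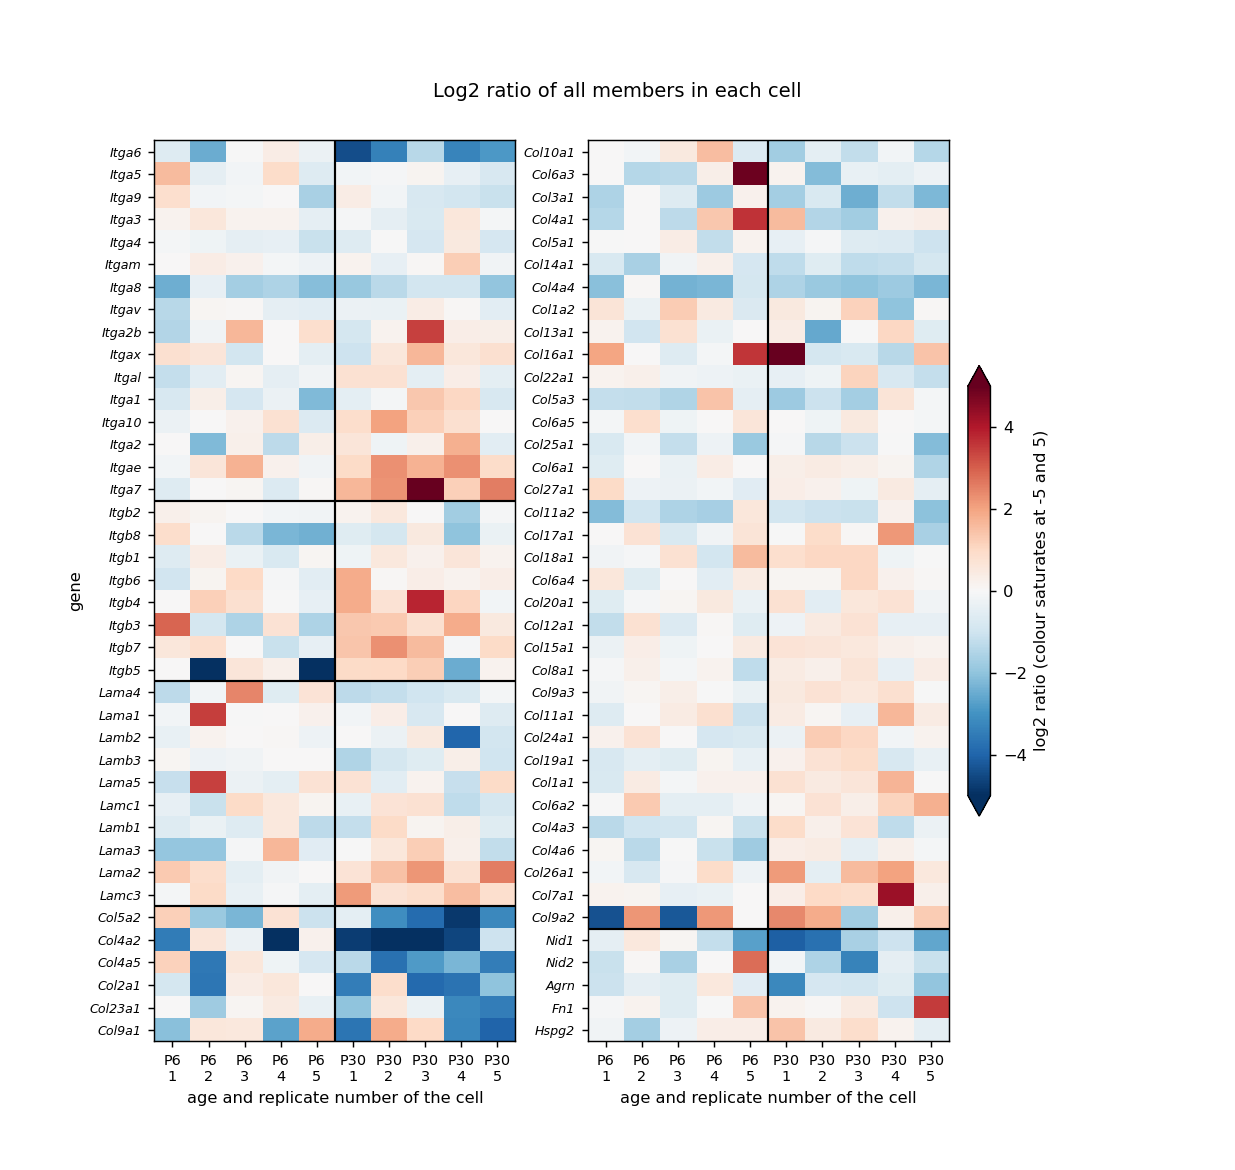
Log2 ratio of all 80 members (rows, by family and then by difference) in each cell (columns), with red above and blue below 0 and the colour held at -5 and 5. The vertical lines part the ages and the horizontal lines the families. Single red cells stand out in Lama1 and Itga7, Itgb5 has 2 deep blue P6 cells, and Col4a2 is blue in 5 P30 and 3 P6 cells.

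Genes of the pathway around the members were followed in 4 lists. Adaptors and kinases that join integrins to actin were measured for 29 of 32 listed genes. Towards each age 1 of them, 3.45%, passed 3-fold, against 9.39% of all genes towards P6 and 4.93% towards P30, with none apart. Zyx, which encodes the actin regulator zyxin, was 2.90 and Lims2, a partner of integrin-linked kinase, -1.73. Lims2 was high in P30 replicates 4 and 5 only, at 4.17 and 4.46, and was under 3-fold without either, at -1.19 and -1.12. Ilk itself, the kinase that binds the tails of beta integrins, was -1.11, 0.00, 0.26, 0.08 and -1.06 in the P6 cells and -0.11, -0.86, -4.00, -2.46 and -2.08 in the P30 cells. The ages overlapped, and the difference of 1.54 was just under 3-fold.

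Dystroglycan, the other main laminin receptor of glial endfeet, and the enzymes that add its sugars were measured for 14 of 18 listed genes. None was over 3-fold, against 14.3% of all genes in either direction, and none apart, against 3.54%. The median was 0.58. Dag1, which encodes dystroglycan, had a mean of -0.36 ± 0.82 (SD, n = 5) at P6 and 0.64 ± 0.98 (SD, n = 5) at P30, a difference of -0.999. Pomgnt2 and Pomk, enzymes of its sugar chain, had the largest differences, 1.57 and 1.15.

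Enzymes and chaperones of collagen biosynthesis were measured for 25 of 28 listed genes, and 6 of them, 24.0%, were over 3-fold higher at P6, against 9.39% of all genes, and none at P30. Loxl1 and P4ha3, 2 of the 25, had all P6 cells above all P30 cells, against 2.13% of all genes. Loxl1, which crosslinks elastin and collagen, was -1.10, 0.18, -2.83, -0.05 and -0.07 in the P6 cells and -5.78, -3.10, -6.39, -5.84 and -6.64 in the P30 cells. With 2 P30 cells holding a value at the floor, it was at least 27.4-fold higher at P6. P4ha3, a subunit of prolyl 4-hydroxylase, was 1.30, 2.05, 0.00, -2.65 and -1.38 in the P6 cells and -4.31, -3.69, -3.71, -3.54 and -4.63 in the P30 cells, or 14.3-fold higher at P6. The other 4, named after their values were seen, were the hydroxylase Plod3 at 3.44, the cartilage-associated protein Crtap at 3.02, the collagen chaperone Serpinh1 at 2.21 and the disulfide isomerase P4hb at 1.73. Each of these overlapped between the ages. P4hb, which also folds other secreted proteins, was at -6.30 in P30 replicate 2, and without that cell its difference was 0.67, under 3-fold. Serpinh1 was at 1.53 without P30 replicate 1. With each cell left out in turn 5 to 7 genes of the list passed 3-fold towards P6, against 9.18% to 10.7% of all genes.

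Of 14 other receptors of collagen and matrix, all measured, 1, or 7.14%, was over 3-fold at each age. The shares of all genes were 9.39% at P6 and 4.93% at P30. Sdc4, the syndecan that works with integrins at focal adhesions, was -0.10, -4.10, 2.48, -1.74 and 0.83 in the P6 cells and 3.78, 4.41, 4.36, 3.45 and 3.10 in the P30 cells. All P30 cells were above all P6 cells, as in 1.41% of all genes, and the difference was -4.35, or 20.3-fold. Lrp4, a receptor for agrin and named after its values were seen, had 3.36 and overlapped between the ages.

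Matrix genes are also transcribed by cells of vessels and meninges that touch Bergmann glia, so marker lists of these cells were read in each cell against the other 4 cells of its age. The endothelial list of 14 genes stood at a median of 2.12 in P30 replicate 5 and between -0.64 and 0.35 in the other 9 cells. Of the 14 genes, 10 were over 3-fold above the median of the other P30 cells there. Cldn5, Tek and Slco1a4, defining genes of brain endothelium, had log2 ratios of 3.98, 5.48 and 5.36 in that cell. Not all of the list followed, as Cdh5 at -1.02, Vwf at 0.59 and Slc2a1 at 4.00 were each below some other P30 cells. The list of 12 pericyte and mural genes had a median of 0.15 in P30 replicate 5. Of these genes 4 were over 3-fold above the median of the other P30 cells, and none was over 3-fold below. Over 8-fold above were 3, Vtn at 6.61 and Kcnj8 at 4.78 among them, against 4.17% of all genes. The neuronal list was also highest there, at 1.65, and the astroglial list lowest, at -0.83. In that cell Col4a2 was 15.5-fold and Fn1 10.3-fold above the median of the other P30 cells. They were the only 2 of the 80 members over 8-fold above there, against 4.17% of all genes. The median over all members was -0.51 in that cell and that over all genes -0.30, the lowest of the 10 cells. The part of these markers in the values of Col4a2 and Fn1 was not tested. Without the cell both differences moved, to 3.12 and 0.27. The count of members with all P30 cells above all P6 cells went from 2 to 5, with Itga10, Col1a1 and Col9a3 added. Any gene separates more easily with 1 cell fewer, and the share of all genes without this cell was not computed. The rise can therefore not be read as a trait of the members.

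P6 replicate 5 held the highest P6 values of Col4a1, Nid2, Col6a3 and Col16a1, at 3.60, 2.79, 4.89 and 3.58, the latter pair named after their values were seen. These were the only 4 of the 80 members over 8-fold above the other P6 cells there. The share of all genes was 4.34%, so the count is near that share and no trait of the members. In this cell the endothelial and mural lists had medians of -0.32 and -0.46, although the endothelial gene Kdr was at 5.94. The neuronal list was higher in it than in the other P6 cells, with a median of 0.71. Of its 12 genes 5 were over 8-fold above those cells, against 4.34% of all genes. Among the 5 were Snap25 at 3.21 and Stmn2 at 3.47. The part of these markers in the 4 matrix genes was not tested. Lists of meningeal fibroblasts ran from -0.51 to 0.55 over the cells, and that of Bergmann glial genes from -0.39 to 0.40. As ratios carry no level, the lists show how cells differ from each other and not whether a marker was absent.

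**Figure D5:**
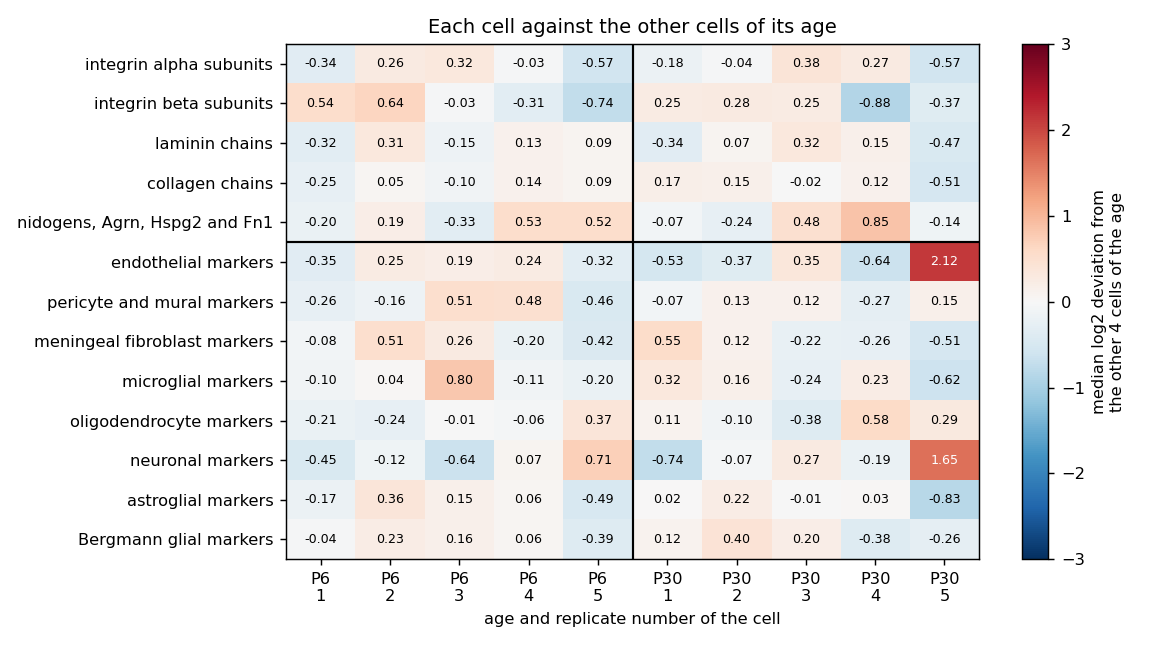
Median log2 deviation of each cell (columns) from the other 4 cells of its age, for the member families (upper rows) and for marker lists of cell types (lower rows), with red above and blue below 0. The endothelial list at 2.12 and the neuronal list at 1.65 stand out in P30 replicate 5, in which the member families lie between -0.57 and -0.14.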

How the data were processed

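Transcripts of 10 Bergmann glial cells, 5 of P6 and 5 of P30, were measured on Affymetrix Mouse Genome 430 2.0 arrays, 1 per cell. The authors processed the scans with RMA in GeneSpring GX 7.3, set values under 0.01 to 0.01, scaled every array to its 50th percentile and then, by their account, divided probe sets by the median of all samples. The genome build and RMA version are not given in the sources used here. The deposited values are linear ratios. They were taken to log2, with 10 values of 0 set to 0.01. The file departs from this, as the median was 1 over P6 cells for 69.5% of complete probe sets and over all 10 cells for 1.48%.

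Of 45101 probe sets, 43608 were complete, with values in all cells. Of all probe sets 34958 were paired with 1 gene, 932 with several and 9211 with none, and only complete probe sets of 1 gene were averaged, which gave 17919 genes. P6 and P30 were set against each other by the mean log2 ratio of each and by whether all cells lay apart. As each age is 1 sample, no test was made. The number of arrays limits the precision. At the floor were 1.07% of P6 and 1.73% of P30 values.

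The genes named are the members over 3-fold or apart, the 2 largest differences in each direction per family, well-known chains of the pial basement membrane and radial glia, members over 8-fold from their age in a cell whose vessel or meningeal markers stood out, and the leading genes of each pathway list. Other names were chosen after their values were seen. The members and lists were chosen with earlier results of these data known. Alternatives were median scaling, a floor of 0.1, fewer probe sets, medians, arithmetic means, a 2-fold rule and each cell left out. The steps were tested on simulated data. Python 3.11.15, NumPy 2.4.6, pandas 2.3.3 and Matplotlib 3.10.9 were used.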

Additional observations from a re-analysis of the deposited data

Results flagged for a closer look

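Within 5 cells of an age, the highest or lowest cell was set against the nearest of the others by Dixon's ratio of gap to range, with a critical value of 0.71. This was done for 39 named genes at both ages, 78 groups in all, and 9 groups had such a cell. Chance alone gives about 1 in 20 groups for normally distributed values, and the count over all genes was not computed. Some genes were also named partly for an extreme cell, as Col4a2 and Fn1 were for P30 replicate 5. The 9 can therefore not be read as a trait of the members. No explanation was weighed for any of them.

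In integrins, Itga7 in P30 replicate 3 had a log2 ratio of 7.22 against 2.55 in the nearest P30 cell. Itgb5 in P30 replicate 4 was at -2.47 against 0.18, and Itgb2 in the same cell was at -1.76 against -0.05. In the matrix, Col4a2 in P30 replicate 5 was at -1.05 against -4.57 and Col7a1 in P30 replicate 4 at 4.26 against 1.01. Lama1 in P6 replicate 2 was at 3.45 against 0.22, while Hspg2 in that cell was at -1.69 against -0.24. Of the pathway genes, Pomk in P30 replicate 3 was at 1.47 against -2.19 and Loxl1 in P30 replicate 2 at -3.10 against -5.78.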

How the results depend on the processing

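No paired analysis was possible because replicate numbers only name single cells and no test was made. Of 160 recomputed counts and family medians, 134 stayed within 1.5 times the reported count or within 1 SD of the cells, and 26 moved. Of 699 recomputed differences of single genes, 695 stayed within that spread. Most of the 699 left out 1 cell, which cannot move a difference by 1 SD of the cells, whatever the values. For those settings the count is therefore no measure of robustness. Calls did change there, as Col2a1, Nid1 and Col9a2 each fell under 3-fold when certain single cells were left out. No gene over 3-fold or with its ages apart changed its sign.

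Median scaling gave 4 members with all P30 cells above all P6 cells and a collagen median of -0.19. The share of all genes apart was not computed for this setting, so the 4 cannot be read as a trait of the members. With a floor of 0.1, 3 members passed 3-fold towards P6, against 6.55% of all genes, and 1 towards P30, against 4.49%. Col2a1, Col4a5, Nid1, Col9a2 and Itgb5 were lost, and Loxl1 was at 2.46. Without probe sets ending in _x_at or _s_at, 5 were over 3-fold at P30, against 5.02% of all genes, with Hspg2, at -1.90, and Itgae added. Medians over probe sets gave 1 member with all P6 cells above, again without the share of all genes. Medians over cells gave laminins -0.18 and the group of nidogens, Agrn, Hspg2 and Fn1 0.36, and Itgb5 and Col9a2 were no longer over 3-fold. The 2-fold rule gave 13 members at P6 and 11 at P30, against 18.2% and 11.7% of all genes. The ratio of arithmetic means gave -5.24 for Itga7, lost Col2a1, Col9a2 and Itgb5, and added Col6a3, Lama1, Lama4 and Nid2 towards P6 and Col7a1 and Itgb4 towards P30. This gave 9 members over 3-fold at P6 and 3 at P30, against 10.6% and 6.45% of all genes.

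With each cell left out in turn, 5 to 8 members passed 3-fold towards P6, against 9.18% to 10.7% of all genes. Towards P30 it was 2 to 3 members, against 5.1% to 5.66% of all genes. All P6 cells lay above in 0 to 2 members and all P30 cells in 2 to 5. Medians were -0.26 to 0.083 for collagens, -0.50 to -0.15 for integrin alpha, -1.01 to -0.63 for integrin beta, -0.041 to 0.49 for laminins and 0.65 to 1.31 for the nidogen group. Without P6 replicate 2, Itga6 and Col4a5 had all P6 cells above and 4 members all P30 cells above. Without P30 replicate 5 the latter count was 5. Fewer cells separate more easily in any gene, and the shares of all genes apart were not computed for these settings. The nidogen group was 0.65 without P6 replicate 5 and 0.65 without P30 replicate 1, and collagens were -0.26 without P30 replicate 5.

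Chosen after seeing the data were 2 alternatives. Without probe sets holding a floor value, 78 members were left, collagens had a median of -0.19 and Itga6 was at 1.29. Without replicate 5 of both ages, 1 member had all P6 cells and 5 all P30 cells above, and the nidogen group was 0.70. These counts of members apart also stand without the shares of all genes. The cause of these changes was not tested. Signal over background is unknown for ratios, so low signal cannot be told from absence.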
